A study of Mus musculus with 6 samples.

Results

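The gene segments of the T cell receptor were examined in LSK cells (Lineage- c-Kit+ Sca1+), the sorted bone marrow fraction in which the blood stem cells lie beside multipotent progenitors. A probe set was included when the platform annotation gave it a single gene whose symbol starts with the prefix of an alpha, beta, gamma or delta segment. This rule uses names only, and it found 130 of 65956 probe sets, each for a gene of its own, out of 30729 genes named on the array. They comprised 85 alpha V, 18 alpha J, 21 beta V, 5 delta V and 1 gamma J segments, and no constant region or D segment. RefSeq lists 14 of them as pseudogene segments.

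The knockout group held 3 arrays of cells from miR-21flox/flox:Mx1-Cre+ mice, and the control group 3 arrays of cells from miR-21flox/flox:Mx1-Cre- littermates. All mice carried the floxed alleles and received 7 intraperitoneal injections of 250 µg pIpC, which induces interferon and so the Mx1 promoter that drives Cre in many cell types. They were 4 to 6 weeks old at injection, and cells were taken 4 weeks later. Cre was present only in the knockout mice, so its effects and those of miR-21 loss cannot be told apart. The sources used here do not say whether a replicate was 1 mouse or a pool, so the p-values cover the spread between arrays and no more.

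A T cell receptor is a pair of chains, alpha with beta or gamma with delta, and each chain gene is assembled from separate segments during T cell development in the thymus. The Rag recombinase cuts beside a V and a J segment (and a D segment in beta and delta), and repair enzymes join the ends. The V segment encodes most of the variable domain and the J segment its end. The delta segments lie inside the alpha locus. Stem cells and multipotent progenitors are known to hold these loci unrearranged, and a probe set on a segment does not tell RNA of a rearranged gene from RNA of an unrearranged locus.

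Values were log2 signals, with array medians between 1.89 and 1.95. Arrays of the same group had correlations of 0.995 to 0.997 over all probe sets, and arrays of different groups 0.987 to 0.991. The probe set annotated to miR-21 also covers its host gene Vmp1. It read 5.65, 5.64 and 5.76 in the knockout and 5.65, 5.60 and 5.63 in control, so it does not check the deletion. LSK markers were all above the dim level where they had a probe set. Of the 10, 7 were lower in the knockout, among them Kit with a difference of -0.46 ± 0.06 (SE), and Cd48 was higher at 0.42. Myeloid markers were higher for 11 of 12, with a median difference of 1.40. Over all genes tested 12.0% were called lower and 19.1% higher. In such sorted bulk RNA, fewer cells of a type and less RNA per cell cannot be told apart.

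Most segments gave little signal. The dim level was set at 1.92, the median of all probe sets, and 56 members had a mean over the 6 arrays above it while 74 were dim. Above it lay 46 of 103 alpha, 7 of 21 beta, 3 of 5 delta and 0 of 1 gamma segments. Of all probe sets with a single annotated symbol, 62.0% were above it. The members just above the dim level were Trbv24, Trav17 and Trav8d-1 with means of 1.93, 1.95 and 1.99, and those just below were Trav16d-dv11, Trav18 and Trav2 with 1.87, 1.80 and 1.73.

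The level of a probe set depends on its own probes, so levels were not compared between segments as amounts of RNA. The brightest alpha probe sets were those of Traj55 at a mean of 9.22, Traj25 at 7.12 and Trav13n-4 at 5.79. Traj55 is a J segment that RefSeq lists as a pseudogene. In the beta locus they were Trbv1 at 3.90, Trbv14 at 3.05 and Trbv31 at 2.66. Trbv31 is known for its inverted place beyond the beta constant regions. The delta locus had Trdv1 at 2.61, Trdv2-1 at 2.09 and Trdv5 at 2.03, and the gamma J segment Trgj3 read 0.76.

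Few segments passed the test between knockout and control. Of the 56 tested, 6 were higher in the knockout, 2 were lower and 48 did not pass (limma, Benjamini-Hochberg adjustment over all 19080 genes tested, threshold 0.05). Over all genes tested 31.1% were called, 19.1% higher and 12.0% lower, so the members' share of 14.3% lay below the background. The median difference, knockout minus control, was 0.04 over the tested members and 0.07 over all genes tested. A difference under 0.2 in size was found for 43 of the 56. The groups did not overlap for 13 of 56 members, against 48.0% of all genes tested, and 10 of 56 were without overlap and higher in the knockout, against 30.9% of all genes tested. A fold of 1.5 with an unadjusted p under 0.05 was reached by 1 member, Trav6d-7, against 4.14% of all genes tested. The knockout mean of Trav6d-7 was under the dim level.

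The tested members were dimmer than other genes, with a median level of 2.75 against 4.26. A split by level was therefore made after the values had been seen. Between the dim level and the 75th percentile of probe sets, 5 of 39 members (12.8%) were called, beside 17.1% of genes. At or above that percentile, 3 of 17 members (17.6%) were called, beside 40.6% of genes. The median SE of the members was larger than that of all genes in both ranges. It was 0.076 beside 0.070 in the lower range and 0.085 beside 0.070 in the upper. The split does not take this into account.

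**Figure D1:**
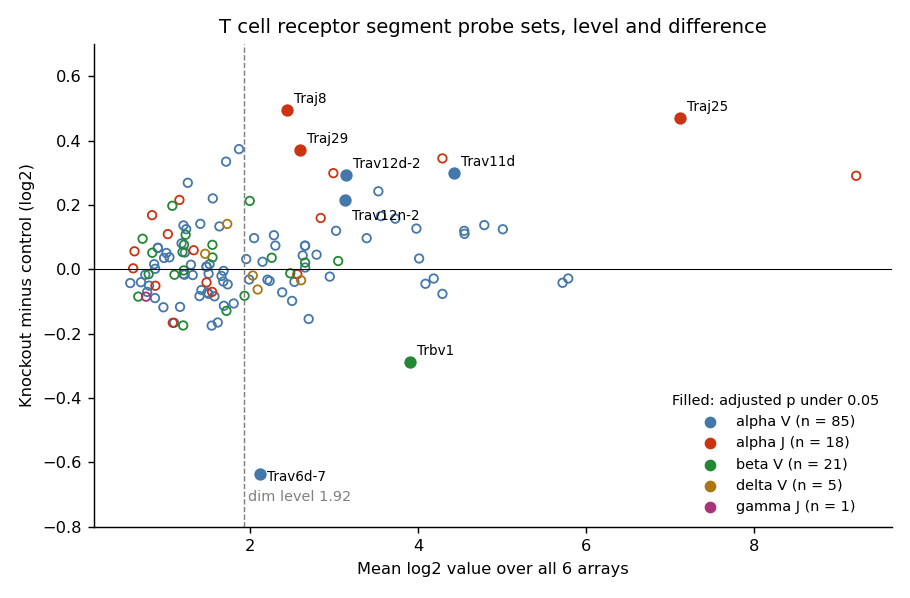
Mean log2 value over all 6 arrays (x axis) and difference in log2 value, knockout minus control (y axis), for each of the 130 segment probe sets, coloured by locus and class, with the dim level of 1.92 as a dashed line. Filled points passed the test: 6 lie above 0 and 2 below, and most of the others lie within 0.2 of 0.

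The J segments of the alpha chain, which supply the end of the variable domain next to the constant region, held 3 of the 6 higher calls. Of 18 alpha J members 8 were tested, 3 were higher and 0 lower, beside 19.1% higher and 12.0% lower over all genes tested. Of the 8 differences 7 were above 0, with a median of 0.32 beside 0.07 over all genes tested. Traj25 read 7.41, 7.32 and 7.33 in the knockout, against 6.51, 6.95 and 7.19 in control. All 3 knockout arrays were above all 3 control arrays, and the control arrays were spread more widely (7.35 ± 0.05 in the knockout and 6.88 ± 0.35 in control, SD, n = 3 each). The difference was 0.47 ± 0.14 (SE; limma adjusted p = 0.0352). The call was lost without any 1 of the knockout arrays, without control replicate 2, after quantile normalization, with no filter on dim genes and with every probe set above the dim level tested, with limma adjusted p from 0.0114 to 0.0874 over the alternatives.

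Traj29 read 2.81, 2.81 and 2.73 in the knockout, against 2.26, 2.59 and 2.39 in control. The groups did not overlap, and the difference was 0.37 ± 0.08 (limma adjusted p = 0.0106). Traj8, a pseudogene segment in RefSeq, read 2.88, 2.65 and 2.54 in the knockout, against 1.91, 2.33 and 2.34 in control. Its groups did not overlap either, and the difference was 0.50 ± 0.13 (limma adjusted p = 0.0177). Without knockout replicate 1 it no longer passed (limma adjusted p = 0.0551). Nor did it pass in a fit of every probe set without a filter (limma adjusted p = 0.0515).

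The other 5 tested alpha J segments did not pass. Traj55 read 9.39, 9.47 and 9.23 in the knockout, against 8.84, 9.12 and 9.26 in control, with overlapping groups and a difference of 0.29 ± 0.11 (limma adjusted p = 0.0705). Without control replicate 3 it passed (limma adjusted p = 0.0369). Traj46 and Traj57 had differences of 0.34 and 0.30 with limma adjusted p = 0.0653 and 0.0692, and both passed when control replicate 2 was left out, as did Traj57 without knockout replicate 1 and Traj46 under the stricter filter on dim genes. Traj54 had 0.16, and Traj14, a pseudogene segment, -0.02.

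Control replicate 1 moved with this result. All 8 tested alpha J members had their lowest value on that array, which was the lowest for 41.1% of all tested members and for 23.2% of all genes tested. Knockout replicate 2 was the highest array for 48.2% of all tested members, 25.9% of all genes tested and 4 of the 8 alpha J members. Without knockout replicate 2, 2 alpha J segments were called, and the median of the 8 was 0.24. Without control replicate 1 the same 3 segments were called, with differences of 0.28 for Traj25, 0.29 for Traj29 and 0.35 for Traj8, and the median of the 8 fell to 0.20, over 1.5 times smaller. RefSeq gives alpha J segments a median length of 61.5 bases, against 502 for alpha V segments. In the 10 dim alpha J members, differences ran from -0.17 to 0.22. The alpha J segments were singled out after their values had been seen.

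**Figure D2:**
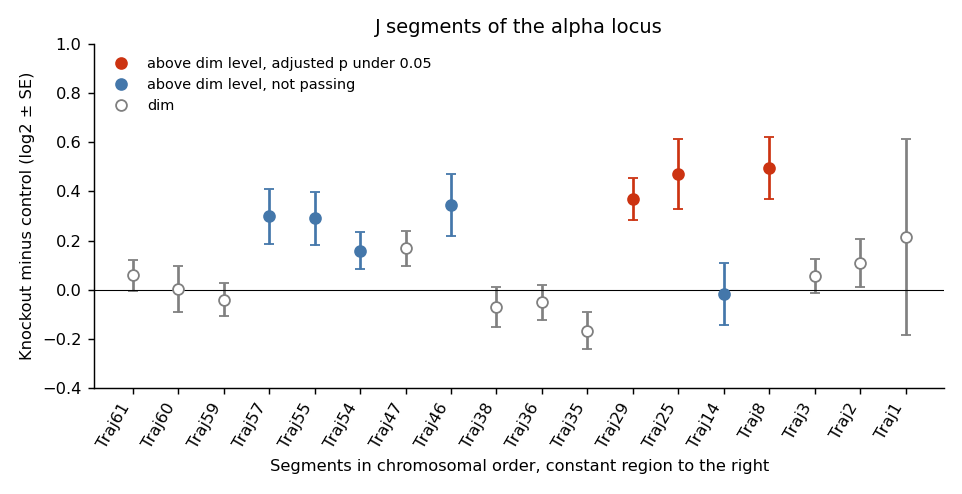
Difference in log2 value, knockout minus control, with its SE (y axis) for the 18 alpha J segments in chromosomal order (x axis), with open points for the 10 dim ones. The 3 that passed the test, Traj8, Traj25 and Traj29, had differences of 0.50, 0.47 and 0.37, and Traj14 lay at -0.02.

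**Figure D3:**
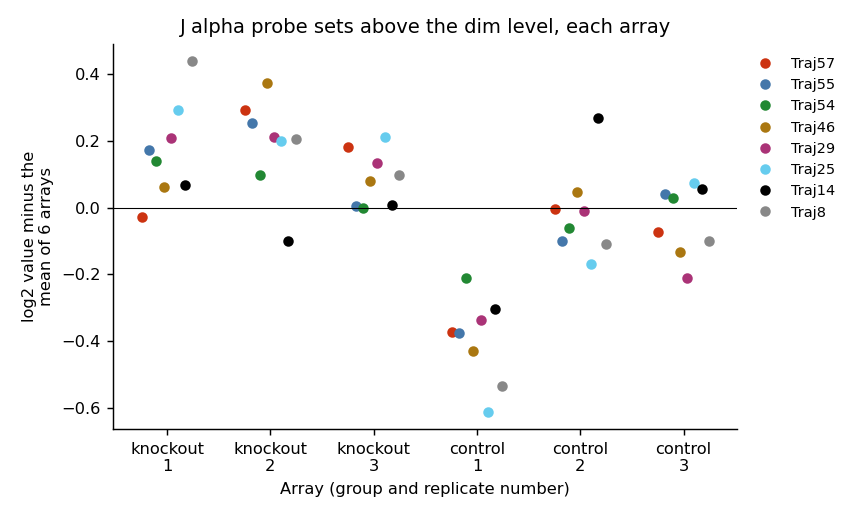
Log2 value of the 8 tested alpha J segments on each array, as the deviation from the segment's mean over all 6 arrays (y axis), with the knockout arrays on the left. On control replicate 1 every segment is at its lowest value.

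Among the V segments of the alpha chain, which encode most of its variable domain, 38 of 85 were tested. Of these 3 were higher, 1 was lower and 34 did not pass, with a median difference of 0.04. Over all genes tested 19.1% were higher and 12.0% lower. Trav6d-7 read 1.99, 1.69 and 1.71 in the knockout, against 2.56, 2.22 and 2.51 in control. All knockout arrays were below all control arrays. Its knockout mean of 1.79 was under the dim level and its control mean was 2.43, so it passed the filter only through control, and the fitted difference of -0.64 ± 0.11 (limma adjusted p = 0.0027) rests on a dim group. The other 6 members of the Trav6 family were dim.

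Trav11d belongs to the family of Trav11, whose V segment is known from the invariant receptor of mouse natural killer T cells. It read 4.69, 4.57 and 4.47 in the knockout, against 4.34, 4.28 and 4.22 in control. The groups did not overlap, and the difference was 0.30 ± 0.07 (limma adjusted p = 0.0132). Without knockout replicate 1 it no longer passed (limma adjusted p = 0.0508). Its copy Trav11n averaged 5.07 ± 0.04 in the knockout and 4.95 ± 0.11 in control (SD, n = 3 each), also without overlap. The difference of 0.12 ± 0.07 did not pass (limma adjusted p = 0.194).

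Trav12d-2 read 3.22, 3.50 and 3.14 in the knockout, against 2.99, 3.03 and 2.95 in control. Trav12n-2 averaged 3.24 ± 0.09 in the knockout and 3.02 ± 0.02 in control (SD, n = 3 each). In both, every knockout array was above every control array. The differences were 0.29 ± 0.09 and 0.22 ± 0.06, with limma adjusted p = 0.0380 and 0.0292. Both calls were lost under 6 or more of the 14 alternatives run for each, which include leaving out any control array. The Trav13 family was above the dim level in all 11 of its members, and none was called or had an unadjusted p under 0.05, while Trav13-1 passed when knockout replicate 1 was left out. Their differences ran from -0.05 to 0.17.

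**Figure D4:**
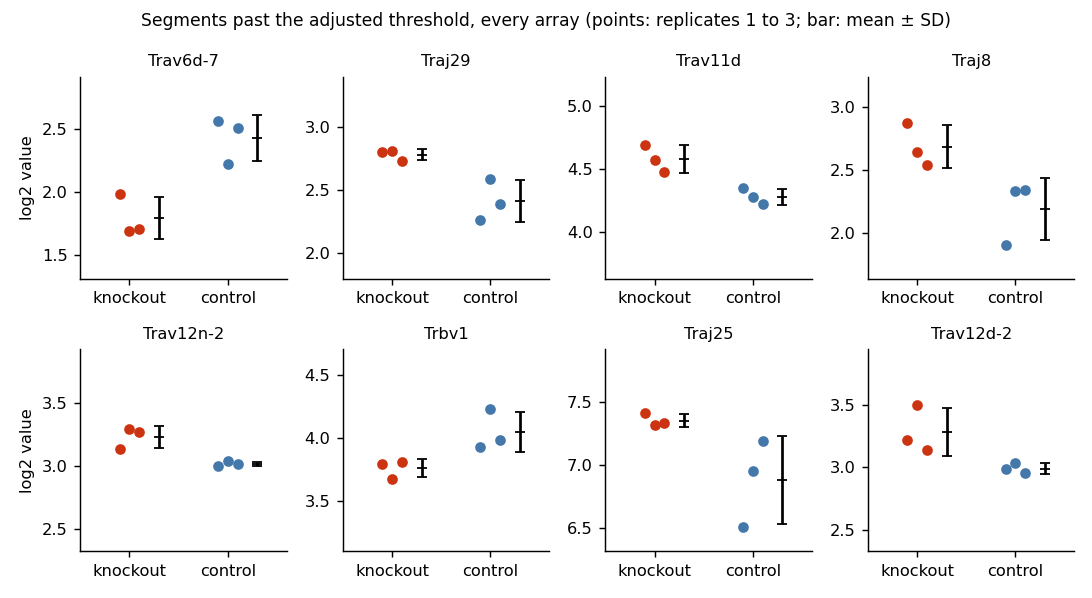
Log2 value on each of the 6 arrays for the 8 segments that passed the test, knockout arrays left of control arrays. In each of the 8 the groups do not overlap, with Trav6d-7 and Trbv1 lower in the knockout and the other 6 higher.

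The beta chain has its own V segments, of which 7 of 21 were tested, 0 were higher and 1 was lower. All genes tested gave 19.1% higher and 12.0% lower. Trbv1 read 3.79, 3.67 and 3.81 in the knockout, against 3.92, 4.23 and 3.98 in control. The groups did not overlap, and the difference was -0.29 ± 0.09 (limma adjusted p = 0.0319). The call was lost when any knockout array, control replicate 2 or control replicate 3 was left out. Trbv13-2, a V segment common in natural killer T cell receptors of mice, had the highest beta difference, 0.21 ± 0.11 with overlapping groups (limma adjusted p = 0.158). Without control replicate 1, its highest control array, it passed (limma adjusted p = 0.0158). Its control mean of 1.89 was under the dim level.

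The delta chain pairs with gamma. Its 3 tested segments did not pass, and 0 of them had an unadjusted p under 0.05: Trdv1 had a difference of -0.03, Trdv2-1 of -0.06 and Trdv5 of -0.02. Trdv4, a dim member, read 1.76, 1.82 and 1.81 in the knockout, against 1.53, 1.72 and 1.72 in control. Trgj3, the only gamma member, had 0.77, 0.68 and 0.70 in the knockout, against 0.79, 0.69 and 0.93 in control. The gamma locus is thus described here by a single dim J segment.

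The 74 dim members were left out of the test above. In a limma fit of every probe set, none of them was called, beside 11.2% of all probe sets, dim and bright. The share among dim probe sets alone was not counted, so the 2 are not a like comparison. Of the 74 members 6 had an unadjusted p under 0.05, and the differences of the 74 ran from -0.17 to 0.37. In the fit of genes without the filter on dim genes 2 of the 74 passed, beside 17.8% of all genes in that fit, dim and bright. They were Trav16n with a difference of 0.33 (limma adjusted p = 0.0321) and Trav7-6 with 0.27 (limma adjusted p = 0.0488). Trav16n read 2.08, 1.80 and 1.76 in the knockout, against 1.52, 1.49 and 1.63 in control.

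The mouse alpha locus holds repeated blocks of V segments, and the letters d and n in a symbol mark copies. Among the members were 20 such pairs, compared after their values had been seen. The difference had the same sign in 16 pairs, a count that includes the 3 identical pairs, whose signs could not differ. In 3 pairs, Trav14d-2 with Trav14n-2, Trav5d-3 with Trav5n-3 and Trav7d-5 with Trav7n-5, the values were identical on all 6 arrays, so these members are not separate measurements. In 12 pairs the copies stayed within 0.2 of each other on every array. Calls on near-identical copies, such as Trav12d-2 and Trav12n-2, are uncertain for this reason.

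The V segments of immunoglobulins, which B cells assemble with the same recombinase, were set beside them. Of the heavy chain segments 68 of 113 were tested, 48 were higher and 7 lower in the knockout, with a median difference of 0.46 and a range from -2.28 to 3.95. Of the kappa segments 46 of 86 were tested, 16 were higher and 10 lower, with a median of 0.12 and a range from -4.34 to 2.82. These counts stand beside 19.1% higher and 12.0% lower over all genes tested. Tested T cell receptor segments ranged from -0.64 to 0.50, where the lower end is Trav6d-7, whose knockout mean was under the dim level. The immunoglobulin segments were filtered by the same mean over all 6 arrays, so their ranges can also include segments with 1 group under the dim level. No test was made of the difference between these groups.

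The genes that cut, join and trim the segments were listed with earlier results of these data known, as were the lists that follow. Their counts stand beside 19.1% higher and 12.0% lower over all genes tested. Of 11 tested recombination genes 2 were higher, 1 was lower and 8 did not pass, with a median difference of -0.07. Nhej1, an end-joining factor, and Poll, a gap-filling polymerase, were higher by 0.31 and 0.29 (limma adjusted p = 0.00444 and 0.0166). Xrcc5, which encodes the Ku80 subunit that binds broken ends, had a difference of -0.30 (limma adjusted p = 0.0135). The call of Poll was lost without knockout replicate 1, control replicate 2 or control replicate 3 (limma adjusted p = 0.0564, 0.0563 and 0.0552), and that of Xrcc5 without knockout replicate 1 (limma adjusted p = 0.0508). Rag2 was dim at 1.34 in the knockout and 1.42 in control, and Rag1 had no probe set of its own. Dntt, which adds bases at the joins, averaged 7.42 ± 0.18 in the knockout and 7.69 ± 0.14 in control (SD, n = 3 each) and did not pass (limma adjusted p = 0.0737). It passed after quantile normalization and without control replicate 2 (limma adjusted p = 0.0264 and 0.0418).

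Partner chains and coreceptors of the receptor gave 0 higher and 1 lower call among 9 tested, with a median of 0.06. The lower one was Cd28, a costimulatory receptor, at 2.40, 2.44 and 2.29 in the knockout and 2.76, 2.85 and 2.79 in control, a difference of -0.42 (limma adjusted p = 0.00143). The chains Cd3e, Cd3d and Cd3g were near or under the dim level: Cd3e had means of 2.28 in the knockout and 2.19 in control, and Cd3d and Cd3g were dim. Cd247, on the same list, was further above it, with means of 3.09 in the knockout and 3.23 in control. Its groups did not overlap, and it did not pass (limma adjusted p = 0.0839). Ptcra, the partner of the beta chain in immature thymocytes, had a difference of 0.13 and did not pass.

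Genes that carry the signal of the receptor inside the cell, many of which act in other blood cells too, were lower for 10 and higher for 1 of 18 tested, beside 12.0% lower and 19.1% higher over all genes tested, with a median of -0.20. Malt1, a protease and scaffold of the pathway to NF-kB, read 4.52, 4.40 and 4.73 in the knockout, against 6.34, 6.41 and 6.33 in control. Its difference was -1.81 ± 0.08 (limma adjusted p = 2.68e-06). Cbl, a ubiquitin ligase, had -0.74 (limma adjusted p = 0.00276). Ubash3a, a negative regulator of receptor signalling, was the higher one at 0.56 (limma adjusted p = 0.000461).

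Factors of early T lineage entry were lower for 6, higher for 2 and not passing for 11 of 19 tested, with a median of -0.08. Hes1, a target of Notch, had a difference of -0.42, Runx3 of -0.43 and Notch1, the receptor that starts T lineage commitment, of -0.38 (limma adjusted p = 0.000795, 0.00238 and 0.00759). Il7r, a cytokine receptor subunit of lymphoid progenitors, had -0.31 (limma adjusted p = 0.0116). Bcl11b, required for T cell commitment, did not pass at 0.02. Tcf7, Gata3 and Lck had no probe set of their own.

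Marker lists of lymphoid cells were set beside the segments. T cell markers gave 1 higher and 3 lower of 13 tested, with a mean list level per array of 2.87 to 2.93 in the knockout and 2.92 to 2.99 in control. Markers of natural killer and innate lymphoid cells gave 3 higher and 1 lower of 6 tested, and another 6 were dim. Of those called, Klrb1c had a control mean of 1.85 and Prf1 a knockout mean of 1.89, both under the dim level. Each thus passed the filter only through the other group. The mean level of the list was 2.63 to 2.69 in the knockout and 2.54 to 2.59 in control. B cell markers gave 1 higher and 1 lower of 8 tested. The part of such cells in the segment values was not tested.

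**Figure D5:**
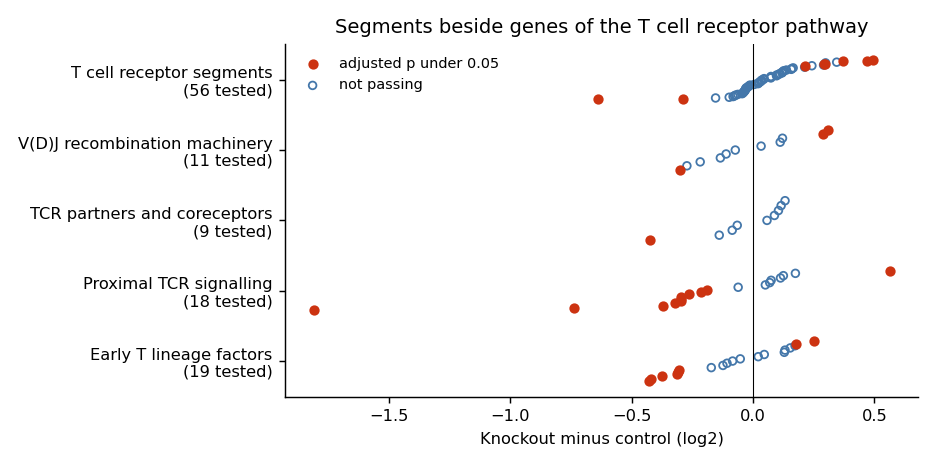
Difference in log2 value, knockout minus control, for the tested segments and the tested genes of the 4 pathway lists, 1 point per gene, filled where the adjusted p is under 0.05. Receptor signalling genes lie mostly below 0, with Malt1 at -1.81. Among recombination genes and receptor partners, Nhej1 and Poll passed at 0.31 and 0.29 and Xrcc5 and Cd28 at -0.30 and -0.42.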

How the data were processed

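The authors deposited 1 table of log2 values for 65956 probe sets on 6 arrays. The submitters' processing notes name RMA, which gives all arrays 1 intensity distribution and so removes a shift common to most transcripts. Labelled DNA was made from 250 ng of total RNA. The log base was read as 2 from the values, which reach 11.5. The array's genome build and software version are not given in the sources used here. For arrays, their number, 3 a group, limits the precision.

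Genes were named from the platform annotation, updated through Entrez IDs with RefSeq (GRCm38.p6): 31202 probe sets had 1 gene, 1548 several and 33206 were not listed. All 130 members matched RefSeq. The brightest probe set stood for a gene, and genes with a mean under 1.92 were left out, which kept 19080 of 30729. Groups came from the sample titles. The groups were compared by two-sided tests in limma 3.58.1 (lmFit and eBayes, R 4.3.3). P-values were adjusted by Benjamini-Hochberg across the kept genes, and 0.05 was the threshold. The fit was tested on simulated data.

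Named members were those called, the 3 brightest of each locus, the 3 on each side of the dim level, and the highest and lowest difference of each locus; named list genes were up to 4 called members by p and a set always reported. Others were chosen after their values were seen. Members and lists were chosen with earlier results of these data known. Alternatives covered the filter, the probe set rule, scaling, the variance model, array weights, a replicate block, left-out arrays and a fold threshold.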

Additional observations from a re-analysis of the deposited data

How the results depend on the processing

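The main fit called 6 higher and 2 lower segments, beside 31.1% of all genes. The stricter filter on dim genes left 17 segments to test and gave 3 and 1, beside 43.9% of all genes. Traj46 was among them, and 3 of the 8 calls were kept (Traj25, Trav11d and Trbv1). The other called segments were removed by that filter and not tested. Testing every probe set above the dim level gave 4 and 1, beside 24.9% of all probe sets tested. A fold threshold of 1.5 beside an unadjusted p under 0.05 gave 0 and 1, while 789 of all genes (4.14%) passed that rule, against 5940. Leaving out 1 array at a time gave 3 to 6 higher and 1 to 3 lower segments, beside 21.8% to 26.9% of all genes called. The alpha J segments, counted apart after their values were seen, gave 3 higher calls, 2 to 4 with 1 array left out and 0 under the fold rule. Of the 4 pathway lists 5 genes were higher and 18 lower, 8 were higher after quantile normalization, 3 to 4 with 1 array left out, and 0 were higher and 2 lower under the fold rule. No called segment or list gene named here changed sign in any of these settings. Traj29 and Trav6d-7 passed in all 14 alternatives run for them. The stricter filter removed both, so it is not among the 14, and neither is the fold rule. Trav6d-7 had a knockout mean under the dim level, so its call rests on a dim group in each of these. Traj8 passed in 13 of 14 and Trav11d in 14 of 15, both lost without knockout replicate 1. Traj25 passed in 8 of 15, Trav12d-2 in 7 of 14, Trav12n-2 in 8 of 14 and Trbv1 in 9 of 15. The fit of every probe set without a filter is not among these alternatives. It called 3 of the 130 members, Traj29, Trav11d and Trav6d-7, beside 11.2% of all probe sets. Traj8 did not pass in it (limma adjusted p = 0.0515). Nor did Traj25, Trav12d-2, Trav12n-2 and Trbv1 (limma adjusted p from 0.0756 to 0.0969). The causes were not tested.

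The labels do not say that replicate numbers pair the samples, so they were not taken to do so. Same-numbered arrays of the 2 groups correlated at 0.219, 0.334 and 0.0999 in their deviations from the group means. Arrays with different numbers correlated at -0.278 to 0.129. Whether arrays with the same number share a batch was not tested. With the replicate number as a block, 8 segments were higher and 2 lower, and 7208 genes (37.8%) were called. Of the 8 higher segments 5 were alpha J, with Traj46 and Traj57 added. Dntt was lower (limma adjusted p = 0.00907), and 6 list genes were higher and 21 lower. Updating symbols by Entrez ID would make 133 members. Signals near the dim level limit what can be said of most segments.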

Other observations

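A further 32 probe sets carried a T cell receptor name but fell outside the rule, 26 with several names and 6 with 1. Most of them were dim. None was called in the limma fit of every probe set, beside 11.2% of all probe sets, dim and bright. In that fit 1 had an unadjusted p under 0.05, and the lowest limma adjusted p was 0.0945. The probe set annotated to Tcrg-C1, Tcrg-V4 and Trgj1 read 1.97, 2.01 and 1.96 in the knockout, against 2.69, 1.87 and 2.01 in control, where replicate 1 stood apart. The probe set of the delta constant region with Trdj1 and Trdj2 was dim, at 1.02, 1.29 and 1.18 in the knockout and 1.18, 1.15 and 1.22 in control.

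The nearest protein-coding genes above the dim level on each side of the loci, in RefSeq order, were looked up after the segments. Dim genes and genes of other types were passed over, so these need not be immediate neighbours. Of these 18 genes 3 were higher, 1 was lower and 14 did not pass, beside 31.1% of all genes called. Before the beta locus, Mgam read 3.34, 3.18 and 3.39 in the knockout, against 1.93, 1.97 and 1.85 in control, and Clec5a, a myeloid cell surface receptor, read between 2.39 and 3.48 in the knockout, against between 1.70 and 1.91 in control. Both were called higher (limma adjusted p = 4.04e-06 and 0.00498), with control means under the dim level, so no size is given. After the gamma locus, Elmo1, a regulator of cell movement, had -0.38 (limma adjusted p = 0.00164). After the alpha locus, Oxa1l had 0.17 (limma adjusted p = 0.0468), and Dad1 had 0.09 and did not pass.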
